A study of Mus musculus with 23 samples.

Results

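The lumbar spinal cord of F08 mice, which carry human C9orf72 without the repeat expansion, was compared with that of nontransgenic (NTg) mice. F08 stands for 4 of the 23 libraries in the series and NTg for another 4, and both were chosen by the genotype and tissue in their labels. All mice were C57BL/6 animals aged 6 months, and each library came from the total RNA of 1 numbered mouse. The 4 spinal cord libraries of F112 mice (labelled F112exp), which carry the expanded human gene, show where F08 differs from the other transgenic line. They also entered the filter on low values and the shared estimate of spread behind the limma SE and p of F08 against NTg. The cortex libraries of the same F08 and NTg mice were used only to show where the tissues differ. The transgenes are bacterial artificial chromosomes (BACs), long stretches of human DNA with their own regulatory sequence. F08 is 1 line, so an effect of the human gene and an effect of the site or copy number of its insertion cannot be told apart. The sources used here do not give the site, the copy number, the zygosity or the sex of the mice. The values are RPKM, in which reads are divided by the length of the gene and by the alignments of the library, and the 13816 genes that averaged 0.5 RPKM or more in the spinal cord table were tested.

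C9orf72 encodes a protein that forms a complex with SMCR8 and WDR41 and acts in autophagy and membrane traffic. Expansion of a repeat in its first intron is the commonest known inherited cause of amyotrophic lateral sclerosis (ALS) and frontotemporal dementia (FTD), and the repeat is transcribed and translated into dipeptide proteins. The lumbar cord holds motor neurons that innervate the hind limbs, sensory and inhibitory interneurons, and a large share of white matter rich in oligodendrocytes. An unexpanded transgene is the comparison that asks what the human gene, or its insertion, does without the repeat.

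Alignments per library ranged from 31459800 to 37367600 in F08 and from 28479400 to 34100800 in NTg, so F08 libraries were on average deeper (34598300 against 30498125). Pearson's r between libraries across genes was 0.996 to 0.998 within F08 and 0.995 to 0.997 within NTg, where genes are not independent replicates. Xist, the RNA that coats one X chromosome where cells carry 2, was at 23.6 to 27.5 RPKM in F08 mice 6318 and 6319 and NTg mice 6322 and 6323, and below 0.06 RPKM in F08 6320 and 6321 and NTg 6326 and 6327. The first principal component of the 8 libraries (34.2% of the variance) separated these classes and not the genotypes. Rn45s, a ribosomal RNA precursor, was at 459 RPKM in F112 6325 and at 31.5 to 82.6 RPKM in the other 11 spinal cord libraries. Markers matched the labelled tissue: Hoxc10 and Hoxa10, patterning genes of the lower cord, were at 30.1 ± 1.21 and 13.6 ± 0.41 RPKM in F08 and 28.2 ± 3.53 and 12.2 ± 1.10 RPKM in NTg (SD, n = 4 each).

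Few genes set the genotypes apart. By limma with Benjamini-Hochberg adjustment over all genes tested, 1 of 13816 genes was called higher in F08 at an adjusted p under 0.05 (0.00724%) and 0 were called lower (0%). At an unadjusted p under 0.05 there were 317 higher (2.29%) and 249 lower genes (1.8%), or 566 in all (4.1%), where 690.8 would be expected with no difference. That total depended on the fit. Of the same 13816 genes it was 894 with the F08 and NTg libraries alone, 949 with array weights and 302 with log2 alignments as a covariate. The groups did not overlap in 354 genes higher (2.56%) and 211 lower (1.53%) in F08. The median log2 fold change was 0.01, with 55.6% of genes above 0, and the median standard error (SE) was 0.056.

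The 3 genes with the smallest p in this comparison start within 418 kb of each other on chromosome 19. The called gene was Ide, the insulin-degrading enzyme, a zinc protease that cleaves insulin and amyloid beta. Next to it by p came Btaf1, an ATPase that removes the TATA-binding protein from DNA, and Fgfbp3, a secreted carrier of fibroblast growth factors. Cpeb3, a regulator of mRNA translation at synapses, lies between Btaf1 and Ide. Sequences around their RefSeq start sites (GRCm38.p6, 250 bases before to 50 after the start) are shown because the 3 genes were higher in every F08 mouse and their neighbour Cpeb3 was not. Capitals mark matches, on either strand, to 4 promoter motifs. The TATA box was searched as TATAAA. For the CCAAT box the letters of its name were used. The GC box was taken as GGGCGG. The last was the cyclic AMP response element, TGACGTCA, and no motif is contained in another.
Ide, chr19:37334495-37334794 (-): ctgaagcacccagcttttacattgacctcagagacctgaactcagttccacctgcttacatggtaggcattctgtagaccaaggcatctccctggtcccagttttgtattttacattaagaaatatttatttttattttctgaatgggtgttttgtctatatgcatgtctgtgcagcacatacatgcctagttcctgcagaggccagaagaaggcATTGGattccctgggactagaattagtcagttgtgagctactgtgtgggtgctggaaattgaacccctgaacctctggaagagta
Btaf1, chr19:36925829-36926128 (+): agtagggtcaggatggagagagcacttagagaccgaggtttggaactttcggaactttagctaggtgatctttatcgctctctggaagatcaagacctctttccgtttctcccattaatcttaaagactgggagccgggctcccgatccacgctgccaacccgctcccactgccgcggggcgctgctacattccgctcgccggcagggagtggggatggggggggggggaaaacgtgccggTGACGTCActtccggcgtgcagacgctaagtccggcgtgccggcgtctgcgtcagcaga
Fgfbp3, chr19:36919550-36919849 (-): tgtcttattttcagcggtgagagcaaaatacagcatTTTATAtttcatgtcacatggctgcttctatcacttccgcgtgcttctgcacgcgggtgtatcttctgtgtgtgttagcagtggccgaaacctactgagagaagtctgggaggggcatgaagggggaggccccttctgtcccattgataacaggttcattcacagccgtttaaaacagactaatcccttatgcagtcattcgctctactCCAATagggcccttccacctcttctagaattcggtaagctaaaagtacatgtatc
Cpeb3, chr19:37207422-37207721 (-), the first of 3 listed: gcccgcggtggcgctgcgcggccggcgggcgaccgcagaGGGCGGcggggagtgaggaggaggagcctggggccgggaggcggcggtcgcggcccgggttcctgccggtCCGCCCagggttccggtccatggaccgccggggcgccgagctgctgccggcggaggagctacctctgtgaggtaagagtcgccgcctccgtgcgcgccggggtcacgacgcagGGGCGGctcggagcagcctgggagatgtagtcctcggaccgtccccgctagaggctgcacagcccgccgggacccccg

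The sequences had little in common. The Ide window held 0 CpG dinucleotides at 44.0% GC and 1 CCAAT box, which 37.4% of the 32851 mouse promoter windows also hold. The Btaf1 window held 25 CpG at 60.0% GC and 1 cyclic AMP response element, found in 1.79% of windows. In Fgfbp3 there were 9 CpG at 46.7% GC, 1 TATA box (13.6% of windows) and 1 CCAAT box. Cpeb3 had 42 CpG at 77.7% GC and 3 GC boxes (35.7% of windows). None of these motifs was present in all 3 genes that were higher. For Ide and Cpeb3 the start listed by RefSeq differs from that of GENCODE. On GRCm38 GENCODE annotates Ide from 37268743 to 37337852 and Cpeb3 from 37021291 to 37208601, both on the minus strand. The windows shown for these genes lie inside them and do not reach the GENCODE start. They may therefore not hold the promoter in use, which limits the comparison.

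Ide stood at 14.8, 14.7, 14.9 and 18.4 RPKM in F08 mice 6318, 6319, 6320 and 6321, and at 9.42, 9.30, 10.4 and 9.43 RPKM in NTg mice 6322, 6323, 6326 and 6327. Every F08 library was above every NTg library, and mouse 6321 was the highest. The means were 15.7 ± 1.76 and 9.64 ± 0.51 RPKM (SD, n = 4 each). On the scale of log2(RPKM + 0.5) the fold change was 0.67 (SE 0.067, limma adjusted p = 0.00076), higher in 4 of 4 F08 libraries than in any NTg library. Without mouse 6321 it was 0.60 (adjusted p = 0.000367). Among libraries high in Xist the difference was 0.63 and among those low in Xist 0.71. The call ended when log2 alignments were added as a covariate (0.60, adjusted p = 0.0733), a term on which F08 and NTg themselves differ.

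Btaf1 (chromosome 19, 36926079 to 37012752, plus strand) was at 4.72, 4.73, 4.69 and 5.81 RPKM in F08 and at 3.33, 3.48, 3.68 and 3.63 RPKM in NTg, in the same order of mice. Here too the groups did not overlap and mouse 6321 led. Its log2 fold change of 0.44 (SE 0.067) missed the threshold by limma, at an adjusted p = 0.0639. It passed with robust empirical Bayes, with array weights and with Xist class as a covariate (adjusted p = 0.0477, 0.0252 and 0.00895, within 0.00895 to 1.00 over all settings).

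Fgfbp3 (36917550 to 36919615, minus strand) was at 2.02, 1.91, 1.98 and 2.63 RPKM in F08 and at 1.25, 1.42, 1.24 and 1.48 RPKM in NTg. The lowest F08 value was above the highest NTg value, as for its neighbours. Its log2 fold change of 0.51 (SE 0.091, limma adjusted p = 0.284) was not called. On the linear scale mouse 6321 had 1.24, 1.23 and 1.33 times the mean of the other F08 mice for Ide, Btaf1 and Fgfbp3. The other 3 F08 mice had 1.54, 1.33 and 1.46 times the NTg mean.

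**Figure D1:**
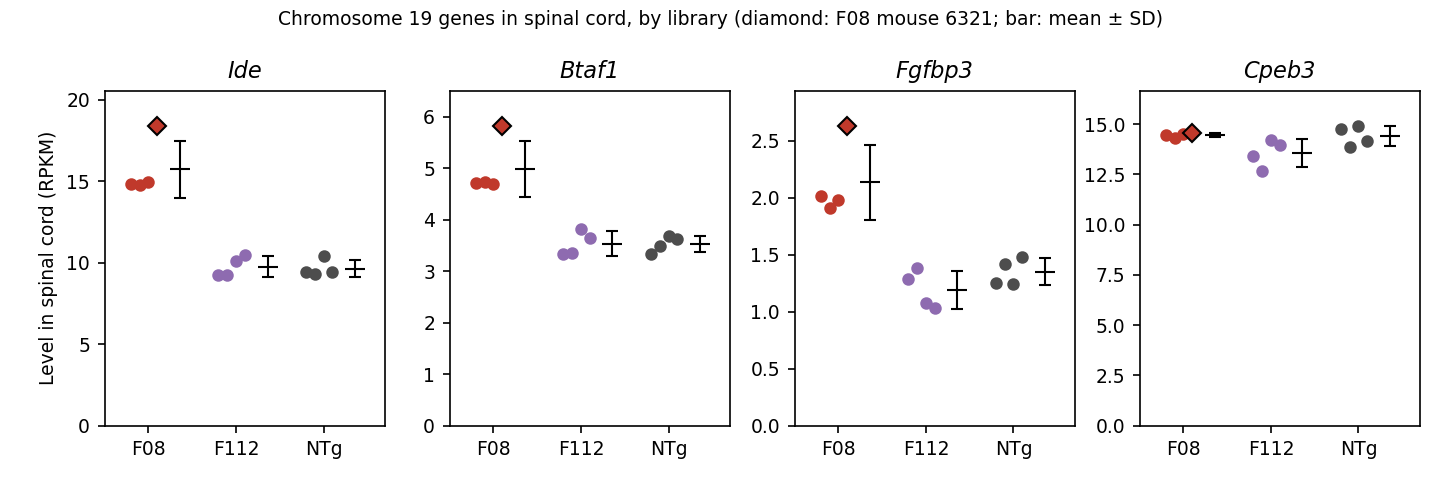
RPKM of 4 chromosome 19 genes in each spinal cord library of F08, F112 and NTg mice, with the mean ± SD beside the points (n = 4 each) and F08 mouse 6321 as a diamond. Ide, Btaf1 and Fgfbp3 are above all F112 and NTg libraries in each F08 mouse and highest in 6321, while Cpeb3 is at 14.5 ± 0.10 RPKM in F08 and 14.4 ± 0.49 RPKM in NTg.

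In spinal cord the rest of this stretch of chromosome 19 lay near 0. Of 22 gene names of the table within 1 Mb of the Ide start, a window chosen after the values were seen, 14 were tested. Apart from Ide, Btaf1 and Fgfbp3 the 11 others had log2 fold changes of -0.09 to 0.15 with a median of -0.01, and 0 had an unadjusted p under 0.05 (the lowest was 0.167). Cpeb3, 129 kb from the Ide start, had a log2 fold change of 0.01 (SE 0.040, unadjusted p = 0.895). Tnks2, a tankyrase that adds poly-ADP-ribose to proteins, lies on the far side of Fgfbp3 and was at 18.3 ± 0.45 RPKM in F08 and 18.1 ± 0.25 RPKM in NTg (SD, n = 4 each). Kif11, a mitotic kinesin of the same stretch, averaged below 0.5 RPKM and was not tested. A gene of the MARCH family lies between Cpeb3 and Ide and is not analysed here, since such symbols had become dates in the table.

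**Figure D2:**
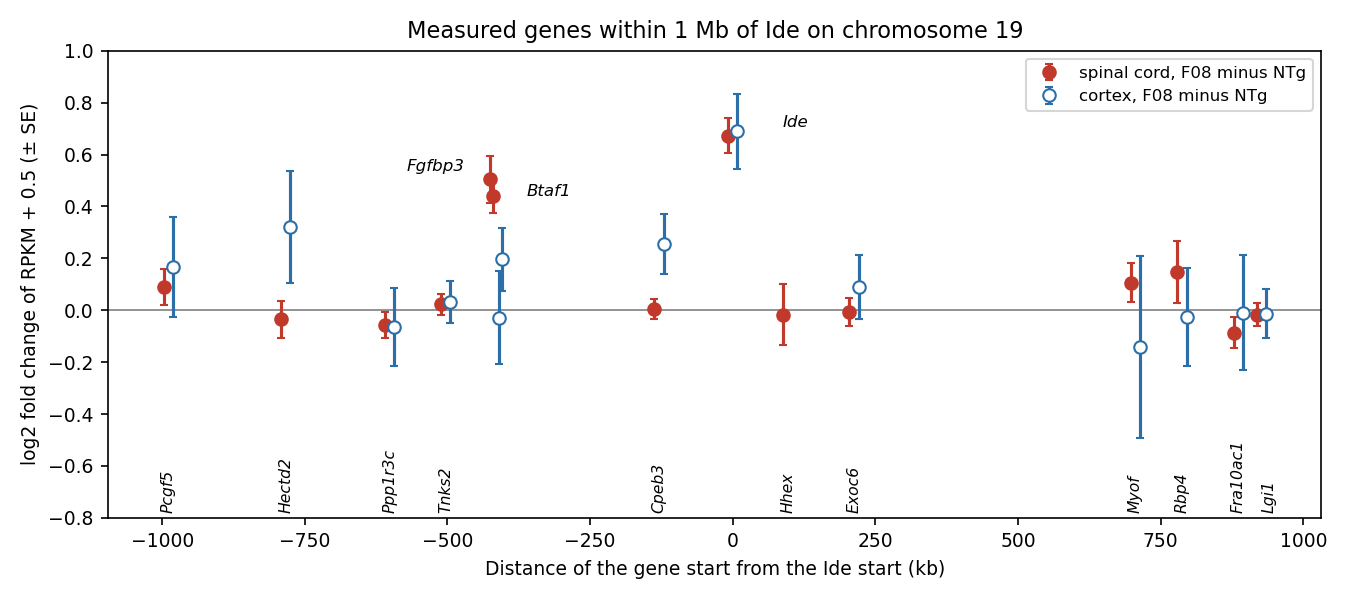
Log2 fold change of RPKM + 0.5 between F08 and NTg (± SE) for the 14 tested genes within 1 Mb of Ide, against the distance of each gene's start from that of Ide in kb. Filled points are spinal cord and open points cortex. Ide is at 0.67 in spinal cord and 0.69 in cortex, Btaf1 at 0.44 and 0.20, and Fgfbp3 at 0.51 and -0.03. None of these 3 tissue differences passed, and the SE is wider in cortex.

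The other transgenic line did not share this pattern. Ide was at 9.23, 9.24, 10.1 and 10.5 RPKM in the F112 libraries, Btaf1 at 3.33, 3.35, 3.82 and 3.64 RPKM, and Fgfbp3 at 1.28, 1.38, 1.08 and 1.03 RPKM. Each F112 value was below each F08 value. The contrast of F08 with F112, which equals the difference between the effects of the lines against NTg, called 3 of 13816 genes higher (0.0217%) and 0 lower (0%), with 1431 at an unadjusted p under 0.05 (10.4%). The 3 were Ide (log2 difference 0.66, SE 0.067, limma adjusted p = 0.00105), Fgfbp3 (0.63, SE 0.091, adjusted p = 0.0358) and Btaf1 (0.44, SE 0.067, adjusted p = 0.0431). Btaf1 and Fgfbp3 were no longer called without F112 6325, the library rich in Rn45s (0.45 and 0.59, adjusted p = 0.0695 for both), and Btaf1 was not with median-of-ratios scaling (0.42, adjusted p = 0.0599).

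In cortex, sequenced on another platform and at lower depth, Ide was at 7.97, 8.01, 8.69 and 12.2 RPKM in F08 mice 6318 to 6321, and at 4.49, 6.24, 5.32 and 5.83 RPKM in NTg mice 6322, 6323, 6326 and 6327. The groups did not overlap and the mouse with the most Ide was again 6321. In cortex its log2 fold change of 0.69 (SE 0.145) was not called by limma, at an adjusted p = 1.00, and the spinal cord difference minus that of cortex was -0.02 (SE 0.161, adjusted p = 0.999). For Btaf1 the cortex log2 fold change was 0.20 (SE 0.120) and for Fgfbp3 -0.03 (SE 0.179). Their tissue differences of 0.24 (SE 0.131) and 0.53 (SE 0.198) did not pass (adjusted p = 0.999 for both). Cpeb3, near 0 in spinal cord, had a cortex log2 fold change of 0.26 (SE 0.114), above that of Btaf1 and not called either.

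Mouse C9orf72 (3110043O21Rik, chromosome 4, 35191285 to 35226175 on GRCm38), the counterpart of the human transgene, had nearly the same level in both genotypes in spinal cord. It was at 11.6, 11.9, 12.1 and 11.6 RPKM in F08 and at 12.0, 12.1, 11.8 and 12.1 RPKM in NTg. The ranges overlapped. The log2 fold change was -0.03 (SE 0.038, limma unadjusted p = 0.481), and an exact two-sided permutation test over 70 rearrangements gave p = 0.229, where 0.0286 is the smallest p it allows. The sources used here do not say if reads of the human transgene could be assigned to it.

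In the cortex of the same mice it was at 6.98, 5.51, 6.54 and 7.44 RPKM in F08 and at 3.05, 4.20, 3.44 and 3.05 RPKM in NTg, with no overlap. The difference between tissues in the F08 effect was -0.89 (SE 0.119, limma adjusted p = 0.00297), and C9orf72 was the 1 gene of 13078 that passed (called lower, 0.00765%), while 383 had an unadjusted p under 0.05 (2.93%). The tissues were sequenced on different platforms and given in separate tables, so the tissue and the platform cannot be told apart. With the animal as a replicate block the difference was the same and the adjusted p was 0.0965, and with F08 and NTg libraries alone it was 0.0544. Each of these fits left 0 genes called.

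**Figure D3:**
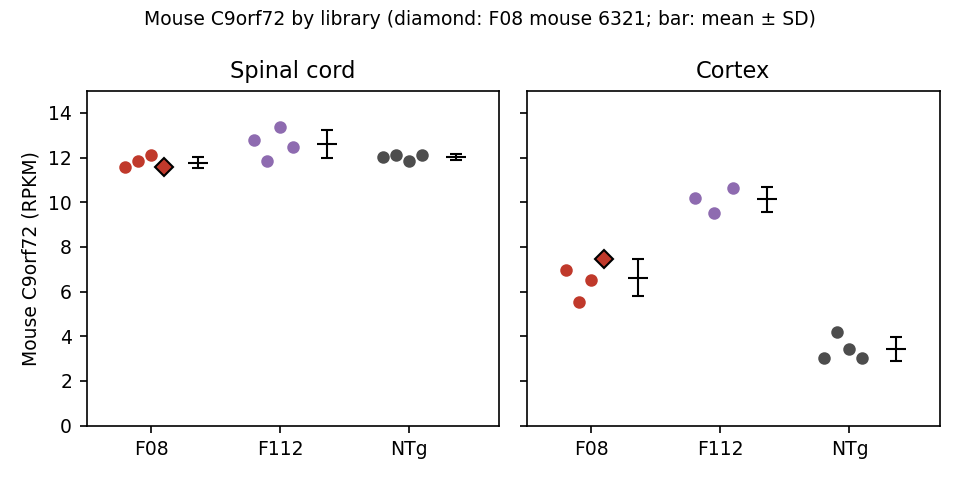
RPKM of mouse C9orf72 in each library of F08, F112 and NTg mice, in spinal cord (n = 4 each) and cortex (n = 4, 3 and 4), with the mean ± SD beside the points. The genotypes overlap at 11.6 to 13.4 RPKM in spinal cord and are apart in cortex.

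The partners of C9orf72 were close to NTg levels. Of 13 measured genes of its complex and of early autophagy, 5 were above 0 and 1, the autophagy kinase Ulk1, had an unadjusted p under 0.05 (log2 fold change 0.09, 20.1 ± 0.29 RPKM in F08 and 18.8 ± 0.89 in NTg). Their median was -0.01 and Wdr41, the lowest, had -0.05. Over all genes tested 55.6% were above 0, with 2.29% higher and 1.8% lower at an unadjusted p under 0.05. Among 36 genes tied to ALS and FTD the median was 0.00, with 17 above 0. Nek1, a DNA damage kinase, was the 1 member at an unadjusted p under 0.05, with 7.55, 7.28, 7.12 and 7.54 RPKM in F08 and 7.95, 7.77, 7.80 and 7.88 RPKM in NTg. Its groups did not overlap, but the log2 difference was only -0.09 (SE 0.038). Tardbp, which encodes TDP-43, an RNA-binding protein that aggregates in ALS, also had non-overlapping groups, at a log2 fold change of -0.04. In this list of 36 genes 3 were lower without overlap and 1 was higher, against 1.53% and 2.56% of all genes tested. Sqstm1, the autophagy receptor p62, was at 199.7 ± 3.50 RPKM in F08 and 198.5 ± 8.82 RPKM in NTg (SD, n = 4 each).

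Beyond chromosome 19, the genes with the smallest p that were higher in F08 were Apcdd1, Wfdc1, Parvb, Cisd3, Hps4, Sox10 and Mkl1, none of them called (limma adjusted p = 0.388 to 1.00). Apcdd1, an inhibitor of Wnt signals, was at 7.91, 8.33, 7.72 and 7.72 RPKM in F08 and at 6.65, 6.81, 6.20 and 6.81 RPKM in NTg (log2 fold change 0.24). Wfdc1, a secreted protein with a protease inhibitor fold, was at 4.97 ± 0.16 RPKM in F08 and 3.96 ± 0.30 RPKM in NTg (0.30). Sox10, the transcription factor that drives oligodendrocyte differentiation, was at 42.4, 45.1, 42.9 and 43.1 RPKM in F08 and at 32.6, 35.7, 36.4 and 41.8 RPKM in NTg (0.25), so NTg mouse 6327 came close to the F08 mice. The other 4 had log2 fold changes of 0.16 to 0.20 for the iron-sulphur protein gene Cisd3, the actin-linked Mkl1 and Parvb, and Hps4, a subunit of a lysosome-related organelle complex.

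Lower in F08, and not called either (adjusted p = 0.388 to 1.00), were Plekhf1, Apold1, Rps4l, Gimap6, Ndufa5, Dusp1, Mthfs, Ebag9, 4930481A15Rik and Cntn3. Plekhf1, which encodes an endosomal lipid-binding protein, was at 5.45, 6.02, 5.70 and 6.32 RPKM in F08 and at 9.33, 9.12, 7.66 and 6.96 RPKM in NTg (log2 fold change -0.45, SE 0.089). Its NTg mice 6322 and 6323, both high in Xist, stood above the other NTg mice, and its difference was -0.64 among libraries high in Xist and -0.26 among those low in Xist. Apold1, an early response gene of endothelium, was at 0.878, 1.02, 1.07 and 1.05 RPKM in F08 and at 1.82, 1.76, 1.41 and 1.44 RPKM in NTg (-0.48, SE 0.098). Rps4l, a ribosomal protein gene whose reads could be split with its relatives, was at 15.4 ± 1.33 RPKM in F08 and 20.6 ± 2.20 RPKM in NTg (-0.41), and in F112 its difference from NTg was -0.37. Gimap6, a GTPase of immune cells, had -0.38, the folate enzyme Mthfs -0.27, the cell adhesion gene Cntn3 -0.21, Ebag9 -0.15 and 4930481A15Rik -0.29.

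Of the genes that respond to neuronal activity and to stress hormones, 0 were called by limma, and their list medians were below 0. Immediate early genes are switched on within minutes of a stimulus. Of 22 tested, 17 lay below 0 and the median was a log2 fold change of -0.15, against 44.4% of genes below 0 and a median of 0.01 over all genes tested. Unadjusted p was under 0.05 in 5, all lower: Dusp1, Nr4a1, Ier2, Sik1 and Atf3, where 1.8% of all genes tested were lower at that p. The median deviation of the list from the NTg mean was -0.24, -0.08, -0.17 and 0.01 in F08 mice 6318, 6319, 6320 and 6321. It was within 0.02 of 0 in each NTg mouse, but each of these is part of that mean, which draws it toward 0. F08 6321 lay level with NTg. Without F08 6318 the median was -0.10, and it was -0.18 among libraries high in Xist and -0.08 among those low in Xist.

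Dusp1, which encodes a MAP kinase phosphatase, was at 5.26, 5.89, 5.68 and 6.41 RPKM in F08 and at 7.64, 7.40, 7.08 and 7.10 RPKM in NTg. The groups were apart (log2 fold change -0.31, SE 0.075, limma adjusted p = 0.950). Nr4a1, an orphan nuclear receptor, was at 3.32, 4.10, 3.91 and 4.64 RPKM in F08 and at 4.76, 5.13, 4.96 and 4.60 RPKM in NTg, with F08 6321 just above NTg 6327 (-0.26, SE 0.090). Ier2, another early nuclear factor, was at 2.13 ± 0.15 RPKM in F08 and 2.65 ± 0.19 RPKM in NTg without overlap (-0.26, SE 0.102). Against the same NTg libraries F112 had a list median of -0.20, with Dusp1 at -0.31 and Ier2 at -0.33. The 2 comparisons share their controls.

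The glucocorticoid response list, which shares Dusp1 with the immediate early genes, had 13 of 16 members below 0 (44.4% over all genes tested) and a median of -0.11, which was -0.17 to -0.06 over all settings. At an unadjusted p under 0.05 there were 4, all lower (1.8% over all genes): Sgk1, Dusp1, Per1 and Nfkbia. The median deviation of the list from the NTg mean was -0.13, 0.01, -0.27 and -0.15 in F08 mice 6318, 6319, 6320 and 6321, and 0.06, 0.13, -0.07 and -0.14 in NTg mice 6322, 6323, 6326 and 6327. These overlap, with F08 6319 among the NTg mice and NTg 6326 and 6327 among the F08 mice. Sgk1, a kinase induced by glucocorticoids, had the widest difference of the list at -0.81 (SE 0.221, limma adjusted p = 1.00). It was at 18.4, 27.9, 18.2 and 30.4 RPKM in F08 and at 55.9, 57.8, 34.1 and 25.5 RPKM in NTg. NTg 6327 lay among the F08 mice, and the difference was -1.31 among libraries high in Xist and -0.32 among those low in Xist. Per1, a clock repressor that glucocorticoids also induce, was at 9.19, 10.2, 10.3 and 10.2 RPKM in F08 and at 11.8, 11.8, 10.9 and 10.9 RPKM in NTg (-0.18, no overlap). Zbtb16, a transcription factor induced by glucocorticoids, had the highest value of the list at 0.49 (SE 0.278) and was named after its values were seen. It varied within groups, at 3.99 ± 1.17 RPKM in F08 and 2.64 ± 0.46 RPKM in NTg. Against the same NTg libraries F112 had a median of -0.14 for the glucocorticoid response list. The sources used here do not state the hour of death or the handling, and their part in these values was not tested.

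**Figure D4:**
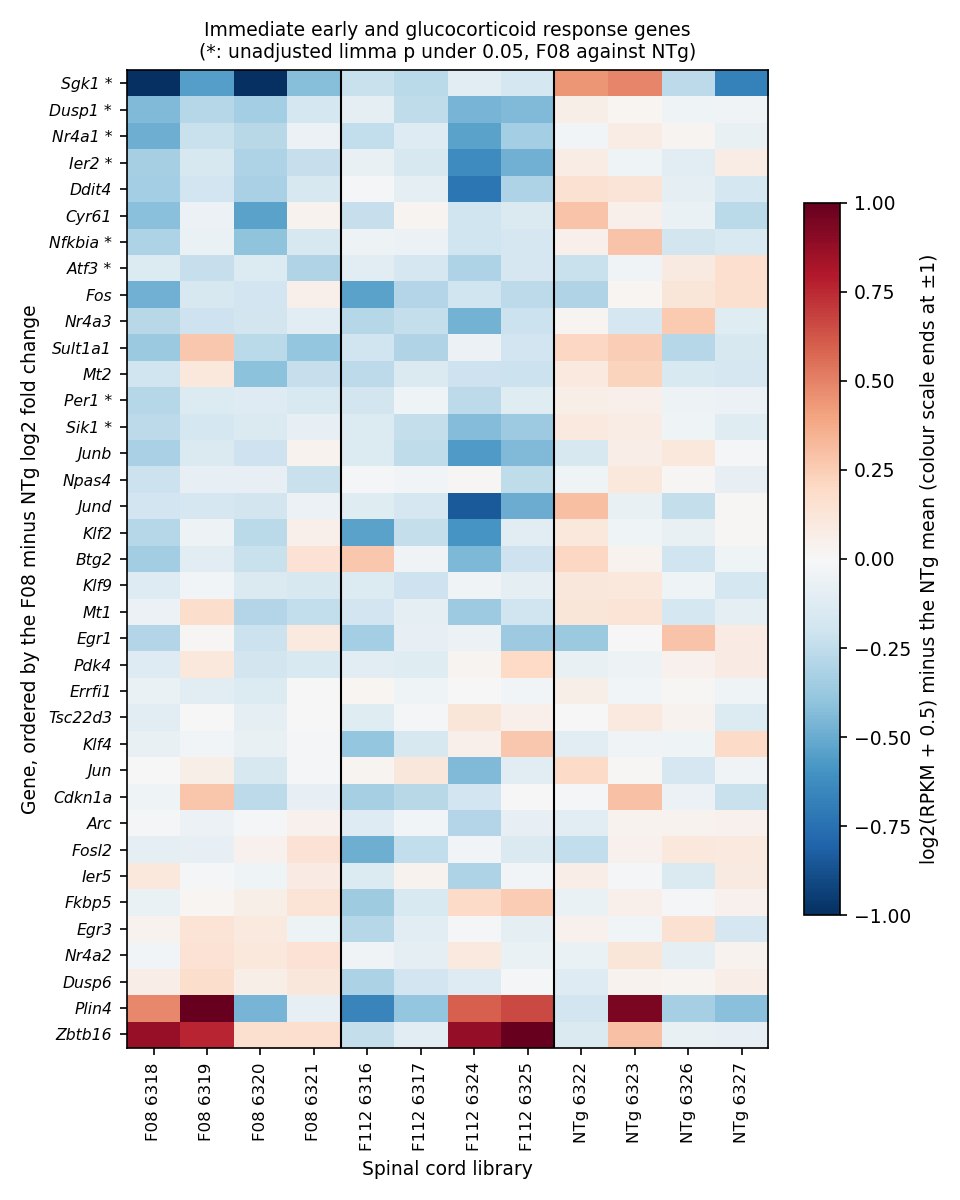
Log2(RPKM + 0.5) of immediate early and glucocorticoid response genes in each spinal cord library, minus the NTg mean of the gene, with F08 libraries left, F112 in the middle and NTg right. Sgk1 and Dusp1 head the rows at -0.81 and -0.31, and the median deviation of the early genes is -0.24 in F08 mouse 6318 and 0.01 in F08 mouse 6321.

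Circadian genes showed no common direction. Of 18 tested, 13 were above 0, with a median of 0.03. Over all genes tested 55.6% were above 0, with 2.29% higher and 1.8% lower at an unadjusted p under 0.05. At an unadjusted p under 0.05 Per1 and Ciart, both repressors of the clock, were lower (-0.18 and -0.19), while Bhlhe40 and Tef, transcription factors under clock control, were higher (0.11 and 0.08). Bhlhe40 was at 24.2, 24.2, 23.8 and 23.6 RPKM in F08 and at 20.9, 22.2, 22.7 and 23.1 RPKM in NTg.

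Cell type markers were close to even, and 0 of their list members were called by limma. In a bulk library, fewer cells of a type and less RNA per cell cannot be told apart. The counts of each list from here on are to be read against 55.6% of all genes tested above 0 and 44.4% below, and against 2.29% higher and 1.8% lower at an unadjusted p under 0.05. Motor neuron genes had 14 of 18 members above 0 and a median of 0.07, with 3 higher at an unadjusted p under 0.05. Prph, the intermediate filament peripherin, was at 34.8, 40.6, 40.7 and 39.6 RPKM in F08 and at 34.7, 35.3, 29.4 and 36.1 RPKM in NTg, which overlap (log2 fold change 0.20, SE 0.084). Ache, acetylcholinesterase, was at 74.4, 76.6, 77.1 and 76.6 RPKM in F08 and at 70.8, 72.8, 69.8 and 73.3 RPKM in NTg, which do not (0.09, SE 0.040). Calcb, a CGRP peptide that sensory neurons also make, had 0.21, and Chat, the enzyme that makes acetylcholine, was at 11.2 ± 0.72 RPKM in F08 and 10.8 ± 0.98 RPKM in NTg (0.05, SE 0.060). The median of the motor neuron list was 0.02 among libraries high in Xist and 0.13 among those low in Xist. Dorsal root ganglion genes, which a cord dissection can bring along, share Prph and Calca with the motor neuron list and Tac1 with the excitatory dorsal horn list. Of 5 tested members 4 were above 0, and the lowest was P2rx3 at -0.09. Their median of 0.20 was -0.003 with no filter on low values and 0.03 with log2 alignments as a covariate. Their summed level was 78.6 to 95.4 RPKM in F08 and 61.7 to 82.4 RPKM in NTg, and the defining nociceptor channel genes Scn10a and Trpv1 were at most at 0.0109 and 0.0600 RPKM in any spinal cord library.

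Interneuron and synapse genes showed few differences. Inhibitory interneuron genes had 4 of 13 above 0 (median -0.03) and excitatory dorsal horn genes 11 of 17 (0.03), with 0 at an unadjusted p under 0.05 in either. Slc6a5, the glycine transporter of inhibitory neurons, was at 71.3 ± 3.13 RPKM in F08 and 71.5 ± 2.99 RPKM in NTg, and Slc17a6, the vesicular glutamate transporter, at 45.8 ± 0.45 RPKM in F08 and 46.5 ± 1.11 RPKM in NTg. Presynaptic genes had 20 of 28 above 0 (median 0.01), with Snap25, a vesicle fusion protein, at -0.04. For glutamate receptors the counts were 10 of 18 above 0 (median 0.00, -0.0009 with median-of-ratios scaling and -0.006 with quantile normalization). For GABA and glycine receptors they were 6 of 19 (-0.01), and both lists again had 0 at an unadjusted p under 0.05. Of 30 neurofilament and axonal cytoskeleton genes 25 were above 0, with a median of 0.04. Besides Prph, Tubb4a, a neuronal and myelin tubulin, was higher at an unadjusted p under 0.05, at 589 ± 15.6 RPKM in F08 and 549 ± 14.2 RPKM in NTg (0.10), while Nefl, the light neurofilament, had 0.04.

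Glial lists had medians of 0.00 to 0.05, and single genes stood out. Myelin genes had 7 of 20 above 0 and a median of 0.00, where the same list had a median of 0.43 in the cortex of these mice. Mbp, a main myelin protein, had a log2 fold change of 0.00 (SE 0.048). Oligodendrocyte precursor genes had 10 of 14 above 0 (median 0.02). Gpr17, a receptor of differentiating precursors, was at 7.01, 7.32, 7.62 and 7.63 RPKM in F08 and at 4.16, 6.11, 5.16 and 5.91 RPKM in NTg. Each F08 mouse was above each NTg mouse (0.45, SE 0.137, unadjusted p = 0.00528), and the difference was 0.47 and 0.43 among libraries high and low in Xist. Sox10 and Gpr17 were the 1 member each of the myelin and precursor lists at an unadjusted p under 0.05.

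Astrocyte genes had 10 of 17 above 0 (median 0.02, and -0.02 without F08 6319) with 0 at an unadjusted p under 0.05, and Gfap, their filament protein, was at 452 ± 40.7 RPKM in F08 and 440.0 ± 26.2 RPKM in NTg (0.04, SE 0.060). Reactive astrocyte genes had 11 of 14 above 0 (median 0.05), where Vim, vimentin, was at 25.5 ± 0.64 RPKM in F08 and 23.4 ± 1.52 RPKM in NTg without overlap (0.12, SE 0.055). Homeostatic and disease-associated microglia genes each had 13 of 17 above 0 (medians 0.04 and 0.02). The homeostatic list had 1 of 17 below 0 among libraries high in Xist (median 0.10) and 12 of 17 among those low in Xist (-0.03), and its median without NTg 6322 was 0.003. Aif1, a microglial actin-binding protein, was at 2.63 ± 0.14 RPKM in F08 and 2.65 ± 0.44 RPKM in NTg, and Trem2, a lipid receptor of microglia, had 0.12 (SE 0.068). Fth1, the ferritin heavy chain, had a log2 fold change of -0.12 (SE 0.052), and 0.00 under quantile normalization. Cst7, Itgax, Clec7a and Gpnmb, markers of the disease-associated state, were below the filter of 0.5 RPKM.

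Vessels, surface tissue and blood varied more. Endothelial and mural genes had 13 of 22 above 0 (median 0.02), and Cldn5, a tight junction protein of brain endothelium, was at 17.5, 19.2, 18.8 and 19.4 RPKM in F08 and at 14.5, 15.5, 15.1 and 16.4 RPKM in NTg without overlap (0.28, SE 0.104, unadjusted p = 0.0179). All 8 tested blood genes were below 0 with a median of -0.26. Their summed RPKM was 257, 449, 433 and 375 in F08 and 309, 324, 729 and 577 in NTg, so NTg mice 6326 and 6327 were the highest and the rest of the groups overlapped. The median was 0.10 among libraries high in Xist and -0.69 among those low in Xist, and -0.02 without NTg 6326. Hba-a1, alpha globin, was at 108 ± 29.1 RPKM in F08 and 145 ± 65.0 RPKM in NTg, and its reads could be split with Hba-a2. Ependymal genes had 1 of 9 above 0 (median -0.15, and 0.06 when only genes of at least 5 RPKM were kept), meningeal fibroblast genes 10 of 11 (0.05, and -0.02 without NTg 6326), Schwann cell genes 0 of 5 (-0.04) and skeletal muscle genes 0 of 2 (-0.14), with 0 members of any of them at an unadjusted p under 0.05.

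Lists of protein folding and immune genes had medians of -0.02 to 0.09. Heat shock genes had 13 of 22 above 0 (median 0.01, and -0.0005 with quantile normalization), with the small chaperone Hspb8 higher at an unadjusted p under 0.05 (0.11). Unfolded protein response genes had 19 of 25 above 0 (median 0.04, and -0.004 with log2 alignments as a covariate), with 3 of 25 below 0 among libraries high in Xist and 16 of 25 among those low in Xist. Hspa5, the main chaperone of the endoplasmic reticulum, was at 84.0, 84.9, 76.6 and 78.7 RPKM in F08 and at 65.4 to 76.0 RPKM in NTg, which do not overlap (0.19, SE 0.120, unadjusted p = 0.136), and Chac1, a glutathione-degrading enzyme of this response, had 0.18 (unadjusted p = 0.0193). Interferon response genes had 10 of 24 above 0 (median -0.02, with 0.05 among libraries high in Xist and -0.09 among those low in Xist), with Ifit2 lower at -0.14. Antigen presentation genes had 12 of 13 above 0 (median 0.09, and 0.01 without NTg 6323), with Psmb8, an immunoproteasome subunit, at 2.57 ± 0.064 RPKM in F08 and 2.20 ± 0.28 RPKM in NTg (0.19).

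Ribosomal protein genes had 68 of 79 members below 0 and oxidative phosphorylation genes 60 of 76 (44.4% over all genes tested), with small medians of -0.03 each. At an unadjusted p under 0.05 there were 1 ribosomal gene, Rpl35a (-0.09), and 4 oxidative phosphorylation genes, all lower (1.8% over all genes): Ndufa5, Cox5a, Cox5b and Cox7b. Ndufa5, a subunit of complex I, was at 66.2, 66.3, 67.4 and 72.1 RPKM in F08 and at 76.5, 73.2, 75.9 and 74.4 RPKM in NTg (-0.14, SE 0.033). Cox5a, of complex IV, was at 156, 159, 150.3 and 164 RPKM in F08 and at 177, 170.1, 179 and 165 RPKM in NTg (-0.13, SE 0.036). Neither overlapped, though F08 6321 and NTg 6327 were close for Cox5a. In cortex both lists leaned the other way, with medians of 0.10 and 0.05, and the tissue difference was tested gene by gene only. Cholesterol synthesis genes had 13 of 21 below 0 (median -0.03), and Insig1, a sterol-regulated protein that holds back this pathway, was lower without overlap (-0.15, unadjusted p = 0.0158).

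RNA metabolism and nuclear transport, which the expanded repeat is known to disturb, had list medians near 0 in F08 and also in F112. Against the same NTg libraries the F112 medians were 0.01 for RNA-binding protein genes and 0.02 for nucleocytoplasmic transport genes. The values that follow are those of F08. RNA-binding protein genes had 21 of 41 above 0 (median 0.00, -0.003 with median-of-ratios scaling and -0.01 with quantile normalization), with Celf1, a splicing regulator, at 0.10. Nucleocytoplasmic transport genes had 28 of 41 above 0 (median 0.02), with Xpot, the exporter of transfer RNA, at 0.07 and Nup205, a scaffold nucleoporin, at 0.10. Autophagy and lysosome genes had 23 of 38 above 0 (median 0.01), and Tfeb, the transcription factor of lysosomal genes, was at 8.39, 8.40, 7.90 and 8.12 RPKM in F08 and at 6.94, 7.19, 7.61 and 7.60 RPKM in NTg without overlap (0.15, SE 0.066, unadjusted p = 0.0371). Histone genes had 3 of 10 above 0 (median -0.04), with Hist1h1e at 0.23 and near the filter. Hox genes had 18 of 31 above 0 (median 0.02), with Hoxa10 at 0.15 and Hoxc4, a gene of the upper cord, at -0.15, each at an unadjusted p under 0.05.

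**Figure D5:**
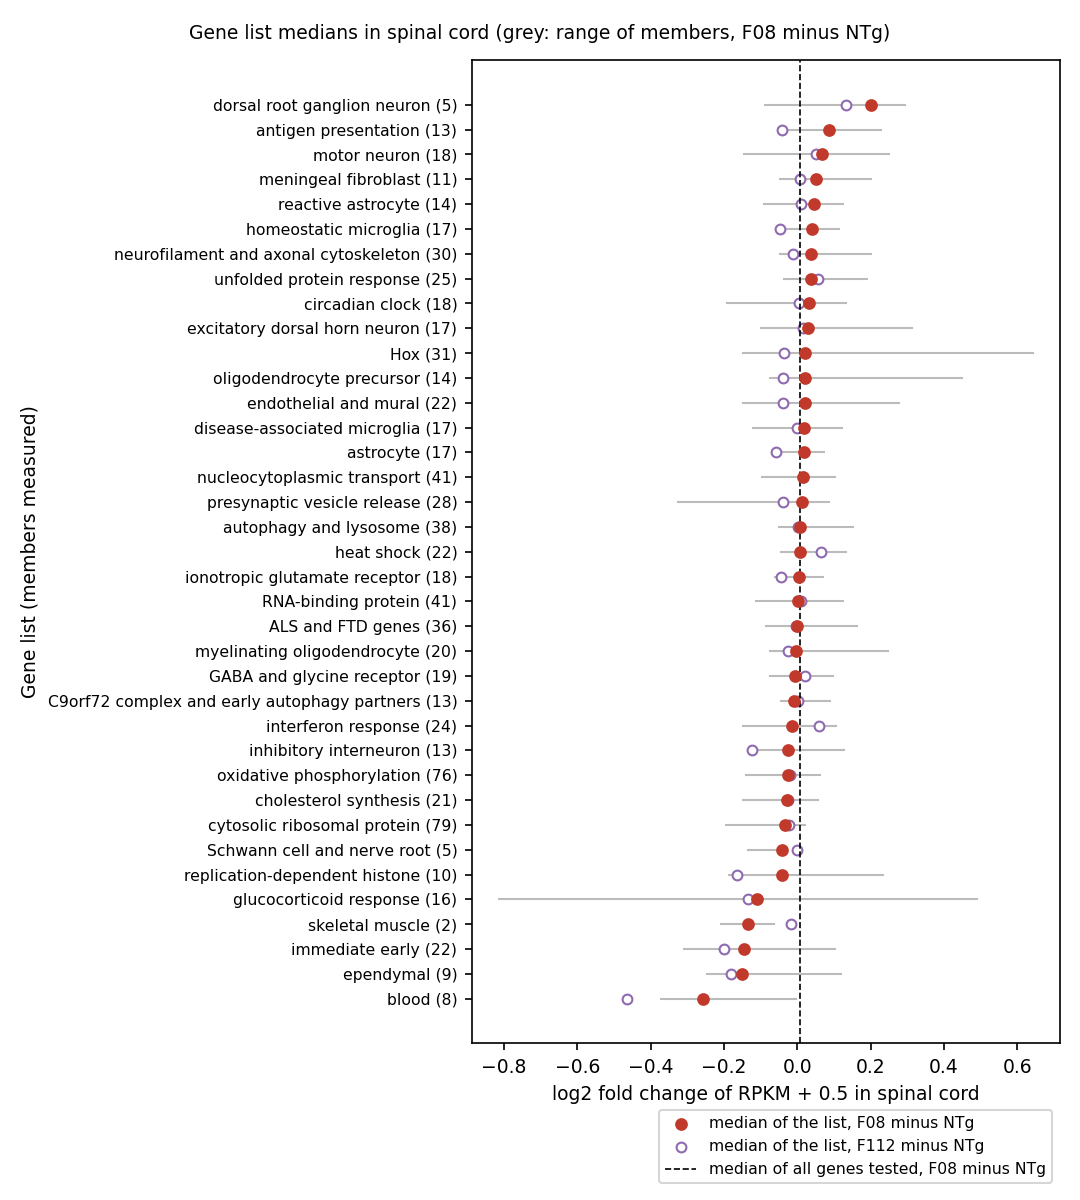
Median log2 fold change of RPKM + 0.5 of each of the 37 gene lists in spinal cord, F08 minus NTg (filled) and F112 minus NTg (open), with the range of the members in grey and the number measured in brackets. The dashed line is the median of all genes tested, 0.01, and most F08 medians lie between -0.05 and 0.09, with blood at -0.26 and dorsal root ganglion genes at 0.20 (-0.003 with no filter) at the ends.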

How the data were processed

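RNA sequencing was done on lumbar spinal cord and cortex. The authors deposited 1 table of RPKM values per tissue, with the number of alignments of each library, and mm9, mm10, Partek and TopHat2 (version 2.0.8b) appear in the submitters' processing notes. Per the labels' protocols brain was run on Ion Torrent and spinal cord on Illumina. The sources used here do not state which of these made which table, how genes were counted, or the strand. Read counts could not be recovered from the RPKM values, so no count model was used.

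In spinal cord, 26 names that had become dates were dropped, and genes were kept where the 12 libraries averaged 0.5 RPKM or more (13816 of 19864). A pseudocount of 0.5 was added and log2 values were fitted by limma (version 3.58.1, R 4.3.3), using empirical Bayes with a mean-variance trend over the 3 genotypes, and p-values were adjusted by the Benjamini-Hochberg method over all genes tested. All tests are two-sided and each log2 fold change is the first named group minus the other. The labels number each mouse but do not say how cages or batches were arranged, so p-values measure the spread between these mice. The fit was tested on simulated data. The tissue difference was fitted over 23 libraries on 13078 genes. Mouse numbers appear in both tissues, and the same animal's deviations correlated by 0.03 to 0.12.

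Positions come from GENCODE M21 (GRCm38), to which 19600 of 20839 names over both tables matched by symbol and 881 by synonym, and promoters from RefSeq (GRCm38.p6). Coordinates were not in the authors' table. Genes were named by a rule: mouse C9orf72, called genes, the 10 smallest p in a direction with fewer than 5 calls, landmark genes, and from each list members with the 2 smallest p or the 2 highest levels. Cpeb3, Tnks2, Kif11, Zbtb16 and the members of lists named beyond it were chosen after their values were seen, as were the 1 Mb window, the classes by Xist (over or under 5 RPKM) for these genes and the fit without F112 6325. Members and the 37 lists were chosen with earlier results of these data known. Alternatives were other scalings, pseudocounts of 0.1 and 1, no filter and one at 5 RPKM, the 8 libraries alone, robust empirical Bayes, array weights, covariates and leaving out each library.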

Additional observations from a re-analysis of the deposited data

Results flagged for a closer look

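F08 mouse 6321 stood apart from the other 3 F08 mice in the 3 chromosome 19 genes, at 18.4 RPKM against 14.7 to 14.9 for Ide, 5.81 against 4.69 to 4.73 for Btaf1 and 2.63 against 1.91 to 2.02 for Fgfbp3. It was also the low F08 mouse for Slc6a5, at 66.6 RPKM against 72.9 to 73.0. NTg 6326 was the high mouse of its group for Ide, at 10.4 RPKM against 9.30 to 9.43, and for Snap25, at 1194 RPKM against 1063 to 1077. F08 6318 was low for Rps4l, at 13.4 RPKM against 15.9 to 16.1, and for Per1, at 9.19 RPKM against 10.2 to 10.3. NTg 6323 was high for Zbtb16, at 3.32 RPKM. These 9 single values passed Dixon's 95% limit among 156 groups of 4 looked at, of which chance passes about 5%. A test of the difference itself set the effects of the lines apart in spinal cord for Ide (0.66), Btaf1 (0.44) and Fgfbp3 (0.63), and gave -0.89 for the effect of F08 on mouse C9orf72 in spinal cord minus that in cortex. By limma its adjusted p was 0.00297, but 0.0965 with the animal as a replicate block and 0.0544 with F08 and NTg libraries alone, and tissue and platform cannot be told apart.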

How the results depend on the processing

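The count of genes called higher in F08 was 1 in the fit as reported and in every leave-out (1 to 1), and Ide was that gene. It was 2 with robust empirical Bayes, 2 with array weights and 2 with Xist class as a covariate, where Btaf1 joined, and 0 with log2 alignments as a covariate. The count of lower genes was 0 throughout. At an unadjusted p under 0.05 there were 283 of 8572 genes at a filter of 5 RPKM and 953 of 19864 with no filter. Of the 13816 genes of the main filter there were 566 in the fit as reported and 302 with log2 alignments as a covariate. On those genes there were 894 with F08 and NTg libraries alone and 949 with array weights. The log2 fold change of Ide was 0.60 to 0.71 over all settings. No paired analysis was possible because F08 and NTg mice share no replicate numbers. For the tissue difference the replicate block left 0 of 1 calls, as did F08 and NTg libraries alone, and 4 of 8 mice correlated best with their own other tissue. At a pseudocount of 1 the tissue difference of Ide was 0.00071.

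Genes near 0 changed sign. Aif1 was -0.0044 with median-of-ratios scaling, -0.0035 with quantile normalization, -0.0010 at a pseudocount of 1 and -0.033 with array weights. Quantile normalization gave -0.0080 for Cpeb3, 0 for Fth1 and 0.0046 for Slc6a5, and array weights 0.0033 for Slc6a5. With log2 alignments as a covariate the values were -0.0074 for Cpeb3, -0.036 for Sqstm1, 0.015 for Snap25, 0.00063 for Slc17a6 and 0.0018 for Slc6a5. Over leave-outs the ranges were -0.064 to 0.069 (Aif1), -0.051 to 0.019 (Mbp), -0.0020 to 0.077 (Gfap), -0.013 to 0.021 (Cpeb3), -0.029 to 0.029 (Slc6a5), -0.014 to 0.030 (Sqstm1) and -0.0076 to 0.093 (Chat). The medians of 17 of the 37 lists took the other sign under at least 1 setting. The cause was not tested. At this depth the median SE of 0.056 limits what could be called.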

Other observations

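Of the 10 genes with the smallest p among those lower in F08 cords, 5 lie on chromosome 6 (Apold1, Rps4l, Gimap6, Ndufa5 and Cntn3), which holds 4.96% of the tested genes with a known chromosome. Their starts are spread along the chromosome. Over all genes of chromosome 6, 2.5% had an unadjusted p under 0.05 and were lower, against 1.8% of all genes tested, and 2.8% were higher, against 2.29%. The pattern was noticed in these data and was not tested.

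Chromosome 18 had the largest share of genes higher at an unadjusted p under 0.05, at 4.83% of 393 genes, and chromosome X the smallest apart from Y, at 1.28% of 468. Apcdd1 and Gpr17 lie on chromosome 18. Chromosome 19, which holds Ide, Btaf1 and Fgfbp3, had 3% of 466 genes.

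Hoxd11, a gene of the lowest cord levels, had the highest log2 fold change of the Hox list at 0.64 (SE 0.380, limma unadjusted p = 0.112). It averaged 2.19 ± 0.49 RPKM in F08 and 1.54 ± 1.17 RPKM in NTg (SD, n = 4 each), so the spread within NTg was wide. The sources used here do not state the position of each dissection along the cord, and its part in this value was not tested.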
